A study of Homo sapiens with 12 samples.

Results

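Chromosome 19 carries the largest collection of zinc finger genes in the human genome. The response of these genes to siARD1 was followed in cells labelled Hep-3B and Huh-7. The genes described here are the protein-coding genes of GRCh38 chromosome 19 whose symbol is ZNF followed by a number. Each also had a mean of 1 CPM (the count scaled to the library total) or more over the 6 libraries of at least 1 line. Of 241 such annotated genes 208 met the level, among 28704 genes listed in either count table. The closest below the limit were ZNF418 (0.913 CPM), ZNF90 (0.806) and ZNF540 (0.745), and the closest above it were ZNF701 (1.06), ZNF571 (1.12) and ZNF57 (1.14). The level in the 2 lines therefore chose the members and is given as a description, while the comparison of siARD1 with control did not enter the rule.

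The study compared 12 RNA-seq libraries in 4 groups of 3. The cells carried the labels Hep-3B and Huh-7, which name hepatoma lines grown from human liver tumours. They were transfected with a negative-control siRNA or with siARD1, an siRNA that targets ARD1. That gene is now called NAA10 and encodes the enzyme of a complex that acetylates the N termini of many new proteins. The labels give no time after transfection, and do not say whether replicates came from separate cultures, so p-values measure only the spread between these libraries, which may be technical.

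Most of the proteins encoded by these genes carry an array of C2H2 zinc fingers that reads DNA, often behind an N-terminal KRAB domain. The KRAB domain binds TRIM28, which brings the histone methyltransferase SETDB1, HP1 proteins and other silencing factors to the bound site. Many KRAB zinc finger proteins bind and silence transposable elements, and the gene family grew in clusters on chromosome 19 by repeated tandem duplication, so that neighbours are close relatives.

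Total counts ran from 17327615 to 25960237 per library. Mean NAA10 was 55.3 ± 5.94 CPM in the controls and 13.6 ± 2.47 CPM after siARD1 (SD, n = 3 per group) in the libraries labelled Hep-3B, and fell from 174 ± 23.4 to 11 ± 1.87 CPM in the Huh-7 libraries, with no overlap in either line (log2 fold changes -2.01 and -3.98, edgeR adjusted p = 1.36e-07 and 1.66e-08). With the 6 libraries of a line permuted exactly, the two-sided p was 0.1 in each line, the smallest that 3 against 3 allows. Albumin and alpha-fetoprotein, which Hep-3B cells are known to secrete, were at a mean of 5.05 and 1.65 CPM in the controls labelled Hep-3B, against 12601 and 5101 CPM in the Huh-7 controls. The 6 hepatocyte markers summed to 321 to 401 CPM in the former controls and to 146 to 148 CPM after siARD1, mostly from FGB, and TTR stood under 0.1 CPM. The markers therefore go against the label, and these libraries are called by their label only. In Huh-7 the same markers summed to 23470 to 24762 CPM in the controls and 18296 to 21738 CPM after siARD1. The 5 fibroblast markers summed to 36.1 to 42 CPM in the Huh-7 controls and 29 to 30.9 CPM after siARD1. Their range in the libraries labelled Hep-3B was 140.1 to 150.2 and 109.6 to 149 CPM, nearly all LUM. PDGFRB rose there from a low level (0.234 to 0.734 CPM, edgeR adjusted p = 0.0107). It passed the filter for testing through the siARD1 group only, so some difference was built into its selection. The 4 endothelial markers summed in the libraries labelled Hep-3B to 53 to 65.6 and 63.1 to 76.1 CPM. KDR rose there from 38.2 to 53.7 CPM (edgeR adjusted p = 0.000922) and PECAM1 fell from 22.1 to 16 CPM (0.00538). These markers moved with siARD1 in the same libraries as the ZNF genes, and their part in the ZNF results was not tested.

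By position the 208 genes fell into 9 clusters, lettered A to I from the short-arm end, with 7 genes outside them. A cluster is a run of at least 5 annotated ZNF genes whose starts lie at most 1 Mb apart (GENCODE v29, GRCh38). Cluster D, between 19668796 and 24129961, is the ZNF91 cluster next to the centromere, with 27 members and the lowest median GC content of exons (38.5%). Cluster C lies at 11483427 to 12640098 (21 members), cluster F at 36182060 to 37817300 (22), cluster G at 43525497 to 45076588 (23) and cluster H at 51571298 to 53580269 (36). Cluster I, at the end of the long arm (55476332 to 58481230), is the largest with 50 members and has a median GC content of 48.3%. Clusters A, B and E hold 4, 13 and 5 members. Exonic GC content ran from 33.9 to 71.1% over the 208 genes. A KRAB motif was found in the coding sequence of 159 members, and the number of C2H2 fingers ran from 0 to 31 with a median of 12. The motif search takes only the form of Leu-Tyr, 2 residues, Val-Met, 1 residue, Glu and then Asn, Thr or Ser, and misses KRAB domains that differ from it.

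Close relatives share sequence, which bears on how reads are assigned. A median of 7.97% of the 32-base windows of a member's longest transcript also occurred in a transcript of another gene, and 20.99% in cluster D. In 8 members the share was at least 50%, among them ZNF724 (64.9%) and ZNF443 (58.7%). Of the 208 gene bodies 148 overlap another annotated gene and 105 overlap one on the opposite strand. The strand setting of the counting is not given, so reads of such pairs may be mixed.

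Promoter sequences from RefSeq (GRCh38.p14, 250 bases before to 50 after the start site) matched 185 of the 208 genes. For each cluster with enough promoters, the 12-base word found in the largest number of its promoters, on either strand, was taken. Each word was thus chosen from the promoters it is counted in, so its excess there follows in part from the choice. The counts over all genes include the cluster itself, and CCAAT was read from the chosen words. In cluster D this was GTCCAATCAGGC, found in 15 of 24 promoters, against 1 of 161 promoters of other members and 32 of 27305 genes in all (0.117%). In cluster C it was ATCCAATCAGGG, in 8 of 21 promoters, against 5 of 164 promoters of other members (0.114% of all genes). Both words hold CCAAT, which stood on either strand in 24 of 24 promoters of cluster D and 20 of 21 of cluster C, against 39.7% of all promoters of that length. Cluster I had it in 29 of 46 (63.0%), and the other clusters examined in 16.7 to 34.5%. The words of other clusters did not hold it: GAATTCTGGGAA in 9 of 19 promoters of cluster G, ATTTCCCAGAGG in 9 of 21 of cluster F and GGCGGGACTTCC in 15 of 46 of cluster I. The promoters shown are those of genes whose response to siARD1 is described, 4 of cluster D and then 2 of cluster C. They are shown 5′ to 3′ on the gene's strand, with the cluster's 12-base word in capitals. ZNF85 lacks the exact word and is shown for comparison.
ZNF724 (chr19:23250345-23250644, minus strand): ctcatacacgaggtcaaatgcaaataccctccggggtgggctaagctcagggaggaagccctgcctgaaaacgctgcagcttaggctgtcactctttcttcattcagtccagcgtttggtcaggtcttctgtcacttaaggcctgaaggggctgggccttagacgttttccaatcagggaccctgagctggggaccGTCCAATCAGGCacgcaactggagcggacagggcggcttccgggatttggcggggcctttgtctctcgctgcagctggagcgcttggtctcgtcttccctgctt
ZNF85 (chr19:20923001-20923300, plus strand): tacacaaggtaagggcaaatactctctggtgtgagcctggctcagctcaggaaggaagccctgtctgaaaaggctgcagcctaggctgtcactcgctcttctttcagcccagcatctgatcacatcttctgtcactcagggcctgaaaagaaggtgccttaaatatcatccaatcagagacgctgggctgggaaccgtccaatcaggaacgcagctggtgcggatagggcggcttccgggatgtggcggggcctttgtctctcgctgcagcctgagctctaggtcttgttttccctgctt
ZNF91 (chr19:23395422-23395721, minus strand): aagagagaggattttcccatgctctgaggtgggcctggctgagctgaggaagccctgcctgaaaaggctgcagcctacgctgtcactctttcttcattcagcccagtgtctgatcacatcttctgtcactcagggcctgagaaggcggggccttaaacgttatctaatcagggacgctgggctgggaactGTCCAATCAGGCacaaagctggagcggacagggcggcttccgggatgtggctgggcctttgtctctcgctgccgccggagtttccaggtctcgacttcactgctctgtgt
ZNF93 (chr19:19900696-19900995, plus strand): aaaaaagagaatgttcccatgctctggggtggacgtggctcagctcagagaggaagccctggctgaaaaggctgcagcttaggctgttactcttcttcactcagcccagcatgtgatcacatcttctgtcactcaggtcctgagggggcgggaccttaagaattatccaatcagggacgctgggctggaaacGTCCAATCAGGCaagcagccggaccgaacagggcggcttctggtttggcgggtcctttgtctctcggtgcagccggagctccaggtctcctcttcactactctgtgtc
ZNF441 (chr19:11766750-11767049, plus strand): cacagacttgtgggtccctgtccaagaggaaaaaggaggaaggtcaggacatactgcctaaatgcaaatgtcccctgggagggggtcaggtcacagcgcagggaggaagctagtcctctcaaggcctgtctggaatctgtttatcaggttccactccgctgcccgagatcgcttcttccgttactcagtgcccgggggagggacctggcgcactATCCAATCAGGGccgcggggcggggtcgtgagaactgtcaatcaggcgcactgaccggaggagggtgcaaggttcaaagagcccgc
ZNF443 (chr19:12440972-12441271, minus strand): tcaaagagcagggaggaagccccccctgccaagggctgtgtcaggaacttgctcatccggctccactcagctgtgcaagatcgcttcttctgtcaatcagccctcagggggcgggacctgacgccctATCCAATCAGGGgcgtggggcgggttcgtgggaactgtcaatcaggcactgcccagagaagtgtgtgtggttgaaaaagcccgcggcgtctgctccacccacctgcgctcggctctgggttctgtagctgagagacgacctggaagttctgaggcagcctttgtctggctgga
A match of letters is a description of the sequence and not a measured binding site.

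As a group the genes were expressed at a lower level in the libraries labelled Hep-3B. The median member stood at 4.51 CPM there and at 8.60 CPM in the Huh-7 libraries. The level was lower in the Hep-3B libraries for 137 members and higher for 71. The 2 tables were scaled to their own library totals. There, 32 members were under 0.1 CPM, and 13 of these are not listed in that table. In the Huh-7 libraries no member was under 0.1 CPM. The low members lay mainly in 3 clusters, with 10 in cluster H, 9 in cluster D and 8 in cluster C, while cluster G held none. ZNF558 (cluster B, 22.8 CPM in Huh-7), ZNF43 (cluster D, 19.4) and ZNF844 (cluster C, 9.88) are among those not listed in the Hep-3B table, and were chosen for naming after their values were seen. Under 1% of the Huh-7 level were 28 members, and under 10% were 52. No member was more than 10 times higher in the Hep-3B libraries. The highest ratio was in ZNF580 of cluster I, at 693% of its Huh-7 level (26.1 against 3.77 CPM).

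**Figure D1:**
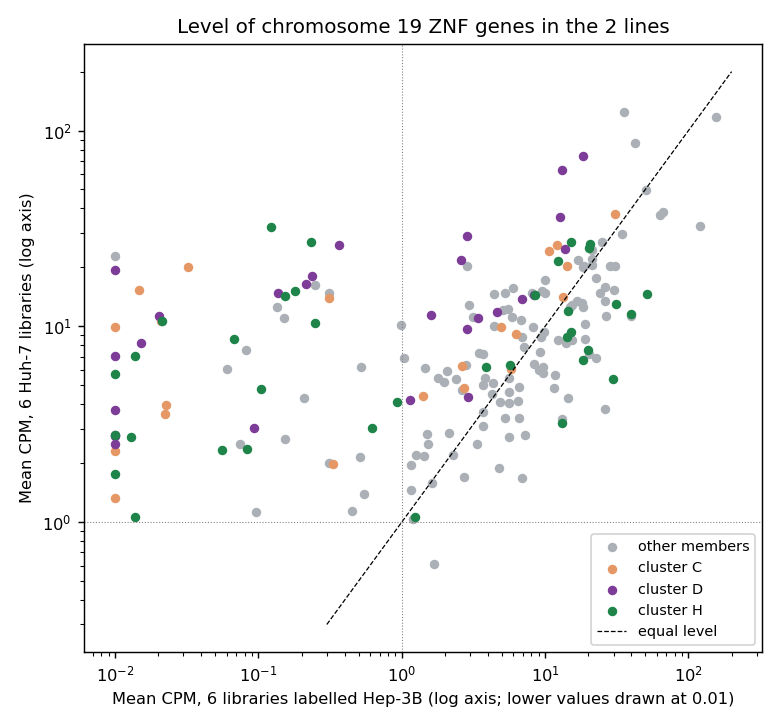
Mean CPM of each of the 208 genes in the 6 libraries labelled Hep-3B (x) and the 6 Huh-7 libraries (y), both on log axes, with clusters C, D and H coloured and the dashed line at equal level. A column of 32 genes under 0.1 CPM on the left has no counterpart at the bottom, and holds mostly genes of the coloured clusters.

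Per kilobase of exon, the scale on which levels of different genes can be compared, ZNF146 was highest in both lines, at 37.7 CPM per kb in the libraries labelled Hep-3B and 28.4 in Huh-7. ZNF146 encodes a protein made almost wholly of zinc fingers, without a KRAB domain. Next came ZNF121 (16.6), ZNF581 (15.3, a gene with 4 fingers) and ZNF787 (11.6) in the Hep-3B libraries, and ZNF787 (23.7), ZNF444 (17.1, a SCAN-domain zinc finger gene) and ZNF358 (11.9) in Huh-7. None of these 6 genes had the KRAB motif.

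Treatment of the cells labelled Hep-3B with siARD1 was followed by rises in ZNF genes of clusters C and D, while 1 of the 44 tested genes of cluster I rose. Among the 156 members tested, 31 rose and 15 fell at an edgeR adjusted p under 0.05, taken over all genes tested. Of all 15762 genes tested in this line 16.8% rose and 15.3% fell, so the share of members that rose (19.9%) is near the background and the share that fell (9.62%) is below it. Control and siARD1 values did not overlap in 65 members, where the background is 45% of genes. The median log2 fold change was 0.05 over the members and -0.01 over all genes tested. The other 52 members were too low to test. ZNF724, ZNF607 and ZNF112 passed the filter through 1 group only, and without them 30 of 153 rose and 15 fell. The changes were mostly small: 16 of the 46 reached 1.5-fold and 3 reached 2-fold.

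Cluster D held the most rises. Of its 14 tested members 11 rose, 0 fell, and all 14 had a log2 fold change above 0 (range 0.27 to 1.58, median 0.63). Without ZNF724, which passed the filter through the siARD1 group only, 10 of 13 rose (median 0.58). The siARD1 values lay wholly above the control values in 12 of the 14 genes. The genes of this cluster form the ZNF91 family of KRAB zinc finger genes.

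ZNF724 (ENSG00000196081, 23221599 to 23250390) had 0.652, 0.406 and 0.631 CPM in the controls and 1.67, 1.35 and 2.12 CPM after siARD1. These are low levels, from 15, 7 and 13 counts in the controls and 29, 31 and 55 after siARD1. The log2 fold change was 1.58 (SE 0.33, edgeR adjusted p = 0.00164). ZNF85 (ENSG00000105750, 20923222 to 20950697) had 1.96, 1.33 and 1.70 CPM in the controls and 4.37, 3.91 and 4.2 CPM after siARD1. Every siARD1 library was at least at 3.91 CPM, above the highest control, and the log2 fold change was 1.30 (SE 0.21, edgeR adjusted p = 0.000202). ZNF708 (ENSG00000182141, 21291160 to 21329425) rose from 1.17, 0.754 and 1.21 CPM to 2.19, 1.82 and 2.50 CPM, again without overlap (log2 fold change 1.03, SE 0.27, edgeR adjusted p = 0.00859). These 3 genes stayed past the threshold whichever library was left out. ZNF493 (21397119 to 21427573) had 2.43, 2.44 and 1.46 CPM in the controls and 3.39, 3.52 and 3.93 CPM after siARD1. Its log2 fold change was 0.78 (SE 0.22, edgeR adjusted p = 0.0132), and the call was lost without control library 3 (0.0622) or siARD1 library 3 (0.0515).

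ZNF93, known to silence LINE-1 elements, and ZNF91, known to silence SVA elements, are also in this cluster. ZNF93 (ENSG00000184635, 19900913 to 19963464) had 2.30, 1.8 and 2.43 CPM in the controls and 3.11, 3.73 and 3.81 CPM after siARD1, a rise of 0.70 on the log2 scale (SE 0.21, edgeR adjusted p = 0.0150). The call was lost without control library 2 (0.0605) or siARD1 library 3 (0.0581). ZNF91 (ENSG00000167232, 23304991 to 23395560), with 31 fingers the longest array among the members, had 11.8, 9.97 and 12.3 CPM in the controls and 13.4, 17.5 and 13.8 CPM after siARD1. The groups did not overlap, but the rise was small (log2 fold change 0.39, SE 0.13, edgeR adjusted p = 0.0280) and was not called without control library 2 (0.122) or siARD1 library 2 (0.144). The remaining 5 genes of the cluster that rose were ZNF101, ZNF430, ZNF714, ZNF431 and ZNF254, with log2 fold changes from 0.41 to 0.71. They are named to complete the count, outside the naming rule. ZNF253, ZNF429 and ZNF675 did not pass the test, with log2 fold changes of 0.51, 0.27 and 0.47.

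**Figure D2:**
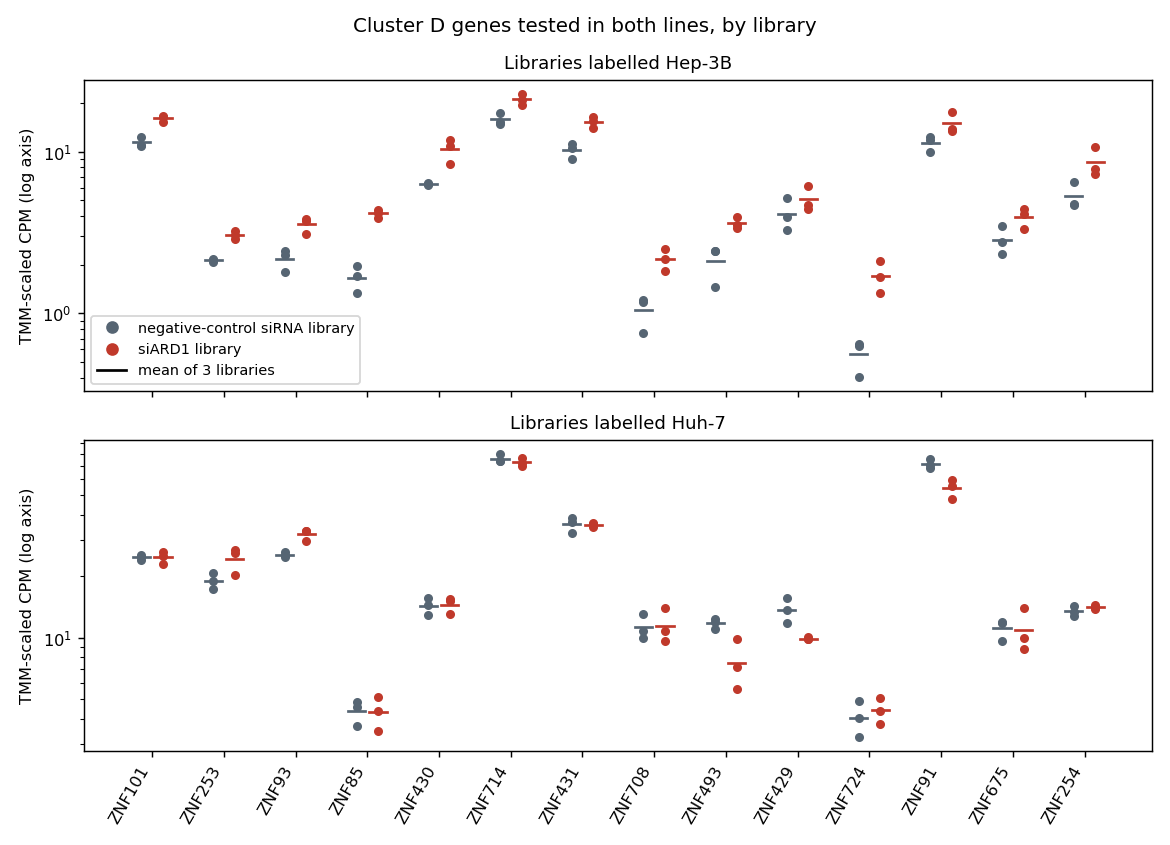
TMM-scaled CPM (log axes) of the 14 cluster D genes tested in both lines, in order along the chromosome, with one point per library and a bar at the mean of 3. In the upper panel 12 of 14 genes have all siARD1 points above all control points. In the lower panel most genes overlap. ZNF91, ZNF493 and ZNF429 are lower there after siARD1 and ZNF93 is higher, each without overlap, and ZNF253 was called higher with overlap.

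The response of cluster D was read beside its GC content, since log2 fold change and GC content were related over all genes of this line. With offsets that remove a smooth trend on GC content and length over all genes, 6 of the 14 genes rose, 0 fell, all 14 stayed above 0 and the median was 0.35. ZNF724 (1.47), ZNF85 (1.09), ZNF708 (0.80), ZNF93 (0.61), ZNF101 (0.48) and ZNF430 (0.40) were the 6. ZNF724 passed the filter through the siARD1 group only, and is counted here and in the promoter split below. ZNF91 (0.15, edgeR adjusted p = 0.412) and ZNF493 (0.50, adjusted p = 0.0963) were not called with the offsets. Among tested genes of the cluster with a promoter sequence, 7 of 8 with the exact 12-base word and 4 of 5 without it rose. As most rose in both groups, this split cannot show whether the word goes with the response. In cluster C 3 of 4 tested genes with its word and 3 of 7 without it rose.

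Cluster C genes rose too, with 6 of 11 tested genes up, 0 down and a median log2 fold change of 0.37 (4 up and 0.26 with the offsets). ZNF441 (ENSG00000197044) had 4.39, 4 and 3.64 CPM in the controls and 5.75, 9.64 and 7.17 CPM after siARD1, with no overlap and a wide spread after siARD1 (log2 fold change 0.91, SE 0.19, edgeR adjusted p = 0.00145). ZNF443 had 1.87, 2.55 and 1.8 CPM in the controls and 3.34, 3.39 and 2.89 CPM after siARD1 (log2 fold change 0.64, edgeR adjusted p = 0.0320). Its call was lost in 4 of the fits that left out 1 library (0.0840 to 0.106), and much of its sequence is shared with relatives. In cluster F, ZNF569 had 4.17, 3.94 and 3.06 CPM in the controls and 6.90, 6.38 and 7.13 CPM after siARD1 (log2 fold change 0.87, edgeR adjusted p = 0.000789). Its neighbour ZNF570 (0.94, edgeR adjusted p = 0.0235) and ZNF233 of cluster G (0.83, 0.0260) completed the 8 largest rises. Both lost their call in most fits that left out 1 library (0.0596 to 0.0960 in 4 fits for ZNF570, 0.0513 to 0.0970 in 5 for ZNF233).

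Genes that fell lay in clusters I (7 genes), G (5), F (2) and A (1). In cluster I 7 of 44 tested genes fell (15.9%, near the 15.3% of all genes), 1 rose (2.27%, against 16.8%), and the median log2 fold change was -0.13. The other protein-coding genes within the span of cluster I had a median of -0.30, with 6 of 13 lower and 1 higher. The gene ZNF444 (58.7% GC) had 47.1, 40.5 and 39.9 CPM in the controls and 26.9, 32.9 and 26.3 CPM after siARD1, and every siARD1 library was below every control (log2 fold change -0.57, SE 0.10, edgeR adjusted p = 0.000374). ZNF524 (64.6% GC) went from 15.8, 14.1 and 16.7 CPM to 10.3, 12.2 and 10.1 CPM (-0.52, SE 0.12, edgeR adjusted p = 0.00318). ZNF875 of cluster F, formerly HKR1, had 21.2, 21.6 and 22.1 CPM in the controls and 15.1, 15.6 and 14.4 CPM after siARD1. The narrow spread of both groups gave a clear fall (-0.52, SE 0.09, edgeR adjusted p = 0.000520). ZNF234 of cluster G fell from 16.2, 21.5 and 16.2 CPM to 12.9, 13.6 and 11.8 CPM (-0.49, edgeR adjusted p = 0.00630). The largest falls by fold were in the weakly expressed ZNF345 (-0.87, edgeR adjusted p = 0.0245) and ZNF554 (-0.67, 0.0191), and ZNF17 (-0.55, 0.0352) was close to the threshold too. Each of these 3 calls was lost without at least 3 of the 6 libraries in turn (0.0595 to 0.1 for ZNF345, 0.0599 to 0.0921 for ZNF554, 0.0707 to 0.150 for ZNF17).

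**Figure D3:**
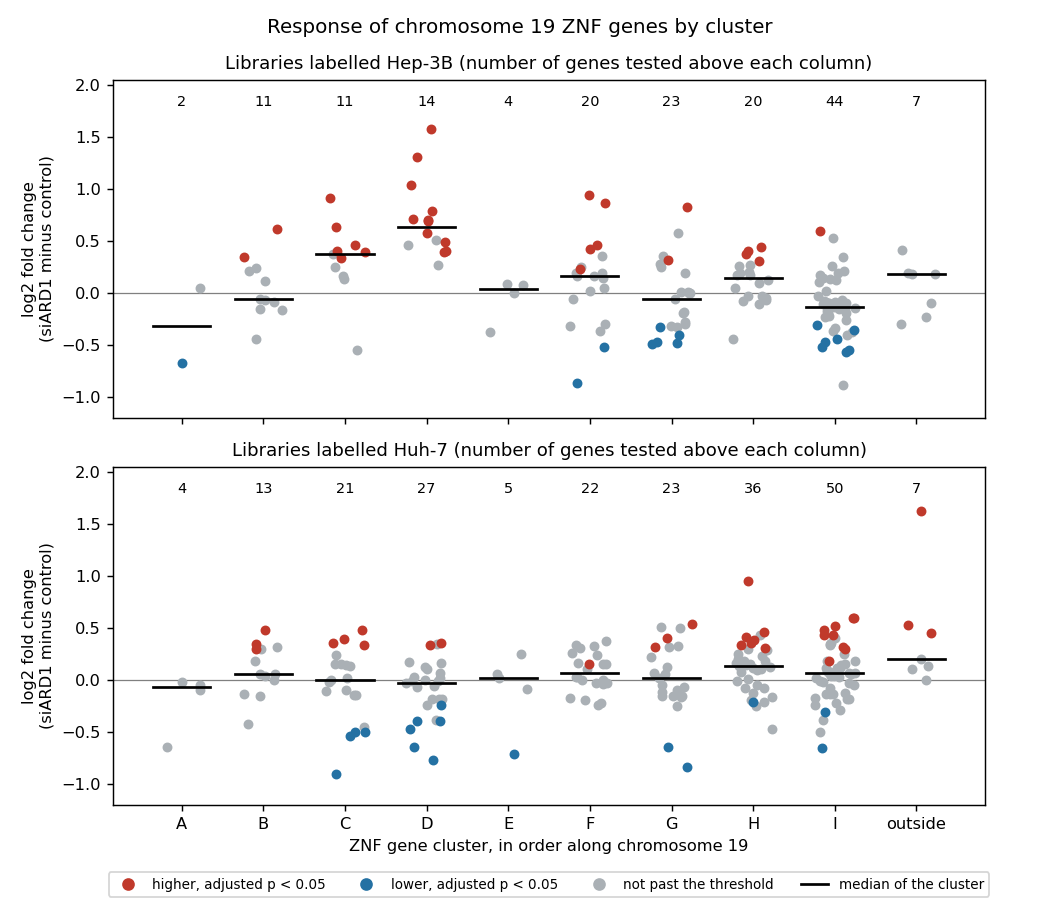
Log2 fold change (siARD1 minus control) of each tested gene by cluster in order along chromosome 19, coloured by the edgeR call, with black bars at the cluster medians. In the libraries labelled Hep-3B all points of cluster D lie above 0 and most of cluster I lie below, while the Huh-7 medians stay between -0.07 and 0.20.

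Among the 52 untested members, 39 are listed at trace levels in the Hep-3B table. Together they summed to 3.91, 3.54 and 3.45 CPM in the controls and to 5.81, 7.77 and 7.98 CPM after siARD1, so the siARD1 libraries were all higher. The mean was higher after siARD1 in 30 of the 39 (76.9%), against 55.4% of the 3483 protein-coding genes that were listed and not tested. Those 3483 genes summed to 436.8, 433.7 and 395.3 CPM in the controls and to 429.3, 526.8 and 481 CPM after siARD1. Their sums were thus also higher in siARD1 libraries 2 and 3, while library 1 lay within the control range. Groups did not overlap in 10 members with higher and 1 with lower values after siARD1, against 234 and 161 of the 3483. In cluster H the mean was higher in 12 of 13. Single genes rest on very few reads. ZNF813 of cluster H had 1, 1 and 0 counts in the controls and 4, 12 and 16 after siARD1, ZNF525 had 0, 0 and 0 and then 0, 4 and 6, and ZNF264 of cluster I had 4, 1 and 4 and then 7, 13 and 12. These values cannot show the size of a change.

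In the Huh-7 libraries members of most clusters moved in both directions. In clusters I and H 9 of 50 and 7 of 36 genes rose (18% and 19.4%). All 208 were tested, 32 rose and 16 fell at an edgeR adjusted p under 0.05, where the background over 15919 genes is 21.2% higher and 18.9% lower. The members' shares (15.4% and 7.69%) are both below it. Groups did not overlap in 74 members, against 50% of all genes. The median log2 fold change was 0.05 over the members and -0.01 over all genes. With upper-quartile scaling, which moved the median of all genes to -0.07, 23 members were higher and 25 lower. The share of rises among the calls was then 47.9% for the members and 39.7% for all genes, against 66.7% and 52.9% with the TMM factors. Of the 48 changes 11 reached 1.5-fold and 1 reached 2-fold. Without control library 3 the number that rose was 20. ZNF114 and ZNF233 passed the filter through the siARD1 group only, and without them 31 of 206 rose and 16 fell.

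Among the named genes, the rises in Huh-7 with the lowest edgeR adjusted p were in ZNF317, ZNF787 (described below) and ZNF473. ZNF317 of cluster B had 42.2, 41.9 and 41.1 CPM in the controls and 58.4, 57.9 and 58.6 CPM after siARD1. The spread within each group was far smaller than the gap between them, and the log2 fold change was 0.48 (SE 0.06, edgeR adjusted p = 2.47e-06). ZNF473, whose protein takes part in the 3′-end processing of histone pre-mRNA, had 17.9, 17.4 and 19.1 CPM in the controls and 24.2, 27.0 and 27.3 CPM after siARD1 (0.53, SE 0.09, edgeR adjusted p = 4.92e-05). ZNF543 went from 4.51, 6.28 and 6.49 CPM to 9.09, 8.25 and 9 CPM (0.60, edgeR adjusted p = 0.00236), ZNF583 from 4.51, 5.55 and 4.87 CPM to 7.44, 8.36 and 6.75 CPM (0.59, 0.00307), and ZNF773 of the same cluster I rose as well (0.52, 0.0104). The largest fold was in ZNF114, which lies outside the clusters, with 14, 9 and 8 counts in the controls and 17, 41 and 32 after siARD1 (log2 fold change 1.63, SE 0.40, edgeR adjusted p = 0.00240). It passed the filter on low counts through the siARD1 group only, so some difference was built into its selection. ZNF836 of cluster H (0.95, edgeR adjusted p = 0.0277) and ZNF235 of cluster G (0.53, 0.0144) lost their calls in 4 and 3 of the fits that left out 1 library (0.0709 to 0.145 and 0.0592 to 0.0776).

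Of the 16 falls in Huh-7, clusters C and D held 4 and 6, shares of 19% and 22.2% of their tested genes, near the 18.9% of all genes. ZNF563 of cluster C had 20.4, 25.9 and 25.3 CPM in the controls and 16.7, 14.7 and 18 CPM after siARD1 (log2 fold change -0.54, SE 0.10, edgeR adjusted p = 0.000237). It is nearly silent in the libraries labelled Hep-3B, with 4 counts in all. ZNF491 of the same cluster fell from 2.37, 2.91 and 2.50 CPM to 1.5, 1.30 and 1.36 CPM (-0.90, SE 0.24, edgeR adjusted p = 0.00448). In cluster D, ZNF681 had 3.50, 3.50 and 3.51 CPM in the controls and 1.91, 1.92 and 2.30 CPM after siARD1 (-0.77, edgeR adjusted p = 0.00434). Of the 27 cluster D genes 6 fell and 2 rose, with a median of -0.03. ZNF284 of cluster G (-0.84, edgeR adjusted p = 0.00348) and ZNF580 of cluster I (-0.66, 0.00560) fell without overlap between groups. ZNF599 (-0.71, 0.0137) was not called without control library 3 (0.0535) or siARD1 library 3 (0.0734), nor was ZNF404 (-0.65, 0.0127) without siARD1 library 1 (0.0579).

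The Hep-3B values of ZNF404 rested on 1 library. Its controls there had 9.69, 3.65 and 3.74 CPM and its siARD1 libraries 6.44, 7.73 and 8.02 CPM. Control library 1 was above all the others, and the gene was not called (log2 fold change 0.36, edgeR adjusted p = 0.525). Without that library the log2 fold change was 1.01 (edgeR adjusted p = 0.000280).

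The siARD1 effect was then compared between the lines gene by gene, as the Huh-7 effect minus the Hep-3B effect in 1 fit of all 12 libraries. Of 195 members tested 19 were higher in Huh-7 and 28 were lower at an edgeR adjusted p under 0.05, where the background of 17122 genes is 15.2% higher and 16.2% lower. The 195 include the 39 members listed at trace levels in the Hep-3B table, which were too low to test in that line alone. Among those called lower, ZNF440, ZNF506, ZNF525, ZNF813, ZNF83 and ZNF264 are such genes, and their differences give no firm size. Cluster D held 12 of the 28, with 0 in the other direction, out of 21 tested, and ZNF506 is one of the 12. Among the 14 cluster D genes tested in each line, all 14 differences were below 0 and 11 passed the test. In clusters I and G the split was the other way, with 7 higher and 2 lower of 50 in cluster I (14% and 4%) and 5 higher and 2 lower of 23 in cluster G (21.7% and 8.7%).

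Called in both lines were 11 of the 156 members tested in both (7.05%), against 16% of 13800 genes. The 5 that rose in both (3.21%, against 4.55%) were ZNF146, ZNF93, ZNF627, ZNF600 and ZNF443, and 0 fell in both, against 3.69%. ZNF93 went in Huh-7 from 24.9, 26.2 and 25.5 CPM to 33.5, 33.4 and 29.7 CPM (log2 fold change 0.33, SE 0.08, edgeR adjusted p = 0.00174), and the difference between the lines was not called (-0.39, edgeR adjusted p = 0.123). ZNF146 had 140, 142 and 148 CPM in the Hep-3B controls and 159, 180 and 167 CPM after siARD1 (0.23, SE 0.06, edgeR adjusted p = 0.00937). In Huh-7 it had 114, 108 and 113 CPM and then 130, 122 and 119 CPM (0.15, SE 0.05, edgeR adjusted p = 0.0300). Its rise in Huh-7 was small and was lost in 3 of the fits that left out 1 library (0.0729 to 0.138) and with upper-quartile scaling (0.203), and its rise in Hep-3B was lost with the GC and length offsets (0.153). The calls of ZNF627, ZNF600 and ZNF443 in Huh-7 (0.36, 0.45 and 0.48) were also lost in 2 such fits each (0.0578 to 0.137). So were those of ZNF627 and ZNF600 in Hep-3B (0.41 and 0.31), in 2 and 5 such fits (0.0504 to 0.127). With the GC and length offsets the Hep-3B calls of ZNF600 (0.0741) and ZNF443 (0.0848) were lost as well.

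The other 6 members (3.85%, against 7.75% of all genes) changed in opposite directions, and in each the difference between the lines was itself called. ZNF91, ZNF441 and ZNF493 rose in the libraries labelled Hep-3B and fell in Huh-7. ZNF91 went in Huh-7 from 75.7, 68.2 and 70.7 CPM to 55.9, 59.2 and 48.1 CPM (log2 fold change -0.39, SE 0.07, edgeR adjusted p = 0.000149), from a higher control level than in the other line. ZNF441 went from 7.44, 6.46 and 7.41 CPM to 5.53, 6.02 and 3.51 CPM (-0.50, edgeR adjusted p = 0.0246, not called without control library 1, control library 3 or siARD1 library 3, 0.0738 to 0.144). ZNF493 went from 11, 11.9 and 12.4 CPM to 5.58, 9.81 and 7.17 CPM (-0.65, SE 0.15, edgeR adjusted p = 0.00228). The differences were -0.80 for ZNF91 (SE 0.14, edgeR adjusted p = 9.0e-05), -1.43 for ZNF441 (SE 0.27, 0.000156) and -1.45 for ZNF493 (SE 0.28, 0.000177).

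ZNF787, ZNF576 and ZNF45 fell in the libraries labelled Hep-3B and rose in Huh-7. ZNF787 of cluster I (65.3% GC) had 52.6, 51.7 and 43.5 CPM in the Hep-3B controls and 36.8, 38.2 and 32 CPM after siARD1 (log2 fold change -0.47, SE 0.09, edgeR adjusted p = 0.000968). In Huh-7 it had 67.3, 79.9 and 74.6 CPM and then 98, 95.9 and 106 CPM (0.43, SE 0.06, edgeR adjusted p = 1.42e-05). Neither pair of groups overlapped, and the difference of 0.89 (SE 0.12, edgeR adjusted p = 1.42e-06) held the lowest p among the 6. ZNF576 of cluster G fell from 8, 7.07 and 8.54 to 5.29, 6.56 and 5.13 CPM (-0.48, edgeR adjusted p = 0.0229) and rose in Huh-7 from 10.2, 9.14 and 8.68 to 11, 11.8 and 14.0 CPM (0.40, 0.0115). ZNF45 of the same cluster fell by 0.33 on the log2 scale (0.0254) and rose by 0.32 (0.0236). For ZNF576 and ZNF45 each call within a line was lost in 2 to 4 fits that left out 1 library (0.0650 to 0.0955 and 0.0682 to 0.128). Their differences between lines (0.86 and 0.63, edgeR adjusted p = 0.00118 and 0.00241) were called in all of those fits. The Hep-3B call of ZNF576 was also lost with the GC and length offsets (0.0533).

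**Figure D4:**
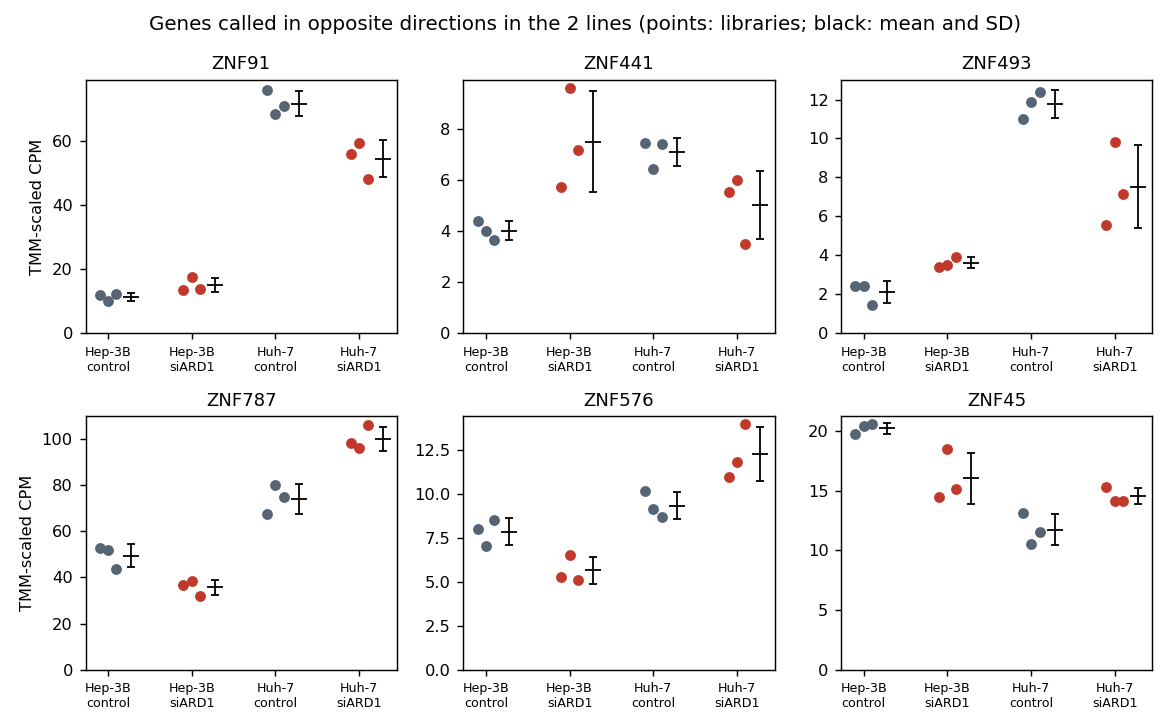
TMM-scaled CPM of the 6 genes called in opposite directions, with one point per library and the mean and SD of 3 libraries in black beside each group. The upper row holds genes that rose in the libraries labelled Hep-3B and fell in Huh-7, and the lower row the reverse.

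The members' response varied with base composition in the libraries labelled Hep-3B. Over the 156 tested members, log2 fold change and exonic GC content had a Spearman rho of -0.477, against -0.286 over 15207 genes (a description across genes, which share the libraries). Among the members in the lowest-GC tertile (up to 42.1%) 19 of 52 rose, 1 fell, and the median was 0.26. In the highest (over 46.0%) 1 of 52 rose, 10 fell, and the median was -0.14. Of all genes tested in the lowest range 1325 of 3700 rose and 210 fell (median 0.19). In the highest range 859 of 8962 rose and 1839 fell (median -0.08). The share of members that rose in the lowest range, and that fell in the highest, was near that of all genes there. With the offsets rho over the members was -0.222, 18 rose and 14 fell, and 17 of the 31 rises and 14 of the 15 falls were still called. Exonic length had a weaker relation (rho 0.147), and length and GC content are themselves related (-0.418).

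Cluster and GC content were then read together. In the lowest-GC tertile 9 of 11 cluster D genes and 2 of 3 cluster C genes rose, against 8 of 38 genes outside these clusters, with medians of 0.69, 0.64 and 0.17. In the middle tertile 2 of 3, 4 of 6 and 5 of 43 rose, with medians of 0.49, 0.37 and -0.06. Of all genes tested in these 2 GC ranges 1325 of 3700 and 444 of 2545 rose, with medians of 0.19 and 0.01. The members outside clusters C and D thus rose in smaller shares than all genes of the same range. The cluster D count of the lowest tertile includes ZNF724, which passed the filter through the siARD1 group only. Outside clusters C and D the relation with GC content was weaker (rho -0.357, n = 131). Of the 110 tested members with the KRAB motif (median GC content 43.0%) 25 rose and 6 fell (22.7% and 5.5%). Of the 46 without it (median 50%) 6 rose and 9 fell (13.0% and 19.6%), against 16.8% and 15.3% of all genes. With the offsets 15 rose and 6 fell among those with the motif, and 3 and 8 among those without it. In Huh-7 25 of 159 with the motif rose and 14 fell, and 7 of 49 without it rose and 2 fell. In Huh-7 rho with GC content was 0.117 over the 208 members and -0.009 over all genes. The rank correlation with length was -0.136 there, of similar size to the Hep-3B value and of the opposite sign. The level of a gene showed little relation with its change (rho -0.062 in the libraries labelled Hep-3B and 0.036 in Huh-7).

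**Figure D5:**
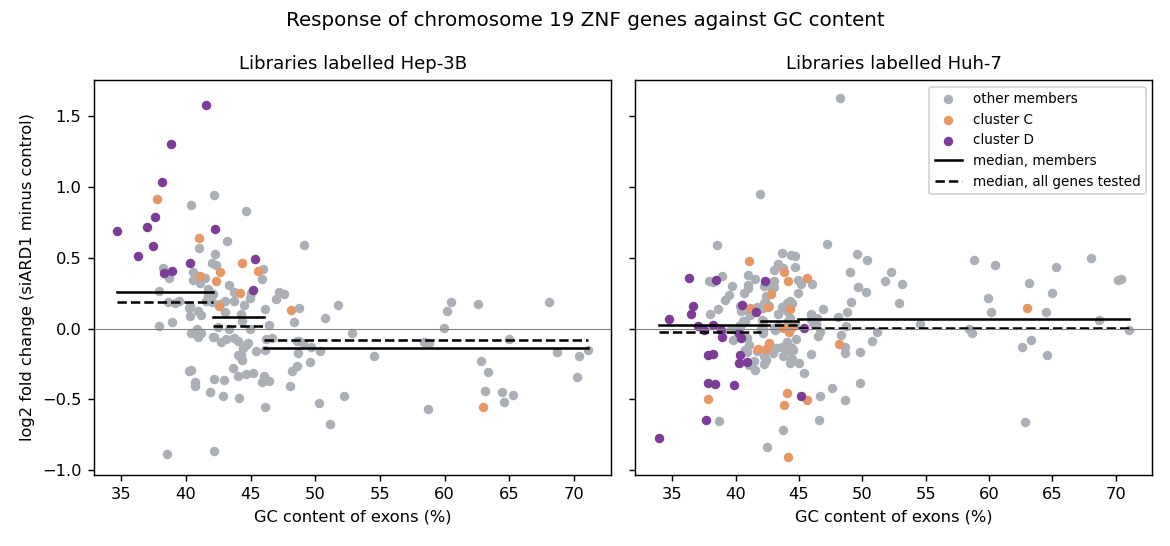
Log2 fold change against exonic GC content of each tested gene, with clusters C and D coloured and bars at the median of the members (solid) and of all genes tested (dashed) in each GC tertile of the members. In the libraries labelled Hep-3B the medians step down from 0.26 to -0.14, and cluster D lies above the bar, while the Huh-7 bars stay within 0.07 of 0.

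The same counts were taken for ZNF genes of other chromosomes. Of 193 tested, chosen by the same level, 43 rose and 18 fell in the libraries labelled Hep-3B (median -0.02), shares of 22.3% and 9.33%. In Huh-7, 53 of 204 rose and 27 fell (26.0% and 13.2%, median 0.09). The other protein-coding genes of chromosome 19 had a median GC content of 59.9%. Of these, 57 of 732 rose and 210 fell in the libraries labelled Hep-3B (7.79% and 28.7%, median -0.12). In Huh-7 172 of 696 rose and 164 fell (24.7% and 23.6%). Over all genes tested 16.8% rose and 15.3% fell in the libraries labelled Hep-3B, and 21.2% and 18.9% in Huh-7. No test of these lists against each other was made.

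Members with a known target or role were read whatever their result. ZNF274, which brings SETDB1 to the 3′ ends of ZNF genes, had 65.7, 67.7 and 68.0 CPM in the Hep-3B controls and 67.9, 64.3 and 65.3 CPM after siARD1 (log2 fold change -0.03, edgeR adjusted p = 0.773). In Huh-7 it went from 36.5, 36.9 and 35.1 CPM to 40.4, 42.8 and 39.5 CPM, a small rise (0.18, edgeR adjusted p = 0.0447) that was lost in 5 of the fits that left out 1 library (0.0665 to 0.168) and under most other settings. ZNF224, a KRAB repressor of the aldolase A gene, rose in the libraries labelled Hep-3B from 17.2, 17.7 and 15.5 CPM to 21.7, 21.8 and 19.5 CPM (0.32, edgeR adjusted p = 0.0217). It was not called with the offsets (0.212) or without control library 3, siARD1 library 1 or siARD1 library 2 (0.0594 to 0.0856). In Huh-7 its log2 fold change was -0.26 (edgeR adjusted p = 0.110), and the difference between the lines was called (-0.59, edgeR adjusted p = 0.00585). ZNF331, ZNF649 and ZNF808, all of cluster H, were expressed in Huh-7 at 14.7 to 15.9, 1.96 to 2.42 and 4.6 to 7.95 CPM in the controls and did not pass the test (edgeR adjusted p = 0.210, 0.624 and 0.436). In the libraries labelled Hep-3B ZNF331 and ZNF649 gave 19 and 7 counts in all, and ZNF808 is not listed.

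The silencing machinery through which KRAB zinc finger proteins act was read from a list of 26 genes. Of these, 7 rose and 6 fell in the libraries labelled Hep-3B (median 0.01), where 16.8% of all genes tested rose and 15.3% fell. In Huh-7 10 rose and 1 fell (median 0.11), where 21.2% of all genes rose and 18.9% fell. The scaffold gene TRIM28 fell in the first from 350.5 to 302.2 CPM on average (log2 fold change -0.21, edgeR adjusted p = 0.0130) and rose in Huh-7 from 329.3 to 423.6 CPM (0.36, 5.85e-05). The methyltransferase gene SETDB1 fell slightly in the first (-0.23, 0.0408) and had a log2 fold change of 0.09 in Huh-7 (0.344). Of the HP1 genes, CBX3 rose in the libraries labelled Hep-3B (0.66, edgeR adjusted p = 2.59e-05), CBX1 rose (0.23, 0.0266) and CBX5 fell (-0.26, 0.0111), and none passed the test in Huh-7. In Huh-7 the rises included MORC2 (0.36, edgeR adjusted p = 1.04e-05), UHRF1 (0.38, 0.000491) and DNMT3A (0.29, 0.00116), which encode silencing and DNA methylation factors. DNMT3A fell in the libraries labelled Hep-3B (-0.44, 0.0138). The differences of these genes between the lines were not tested here.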

How the data were processed

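RNA-seq was measured in 12 libraries, 4 groups of 3. Per the labels' protocols, total RNA was depleted of ribosomal RNA and made into directional libraries. Per the submitters' processing notes, cutadapt 4.6, STAR 2.7.11b and GRCh38 were used. Which counter, gene annotation and strandedness were used was not given in the sources used here. Each line has a deposited table of unnormalized read counts by Ensembl gene (25720 genes for Hep-3B and 25714 for Huh-7), and 0 of its columns were left unmapped.

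Each line was fitted alone over all its genes in R 4.3.3 with edgeR 4.0.16 (filterByExpr with a minimum count of 10 and a minimum total of 15, TMM factors, robust quasi-likelihood F-test, Benjamini-Hochberg adjustment over all genes tested, threshold 0.05). The difference between lines was the interaction in 1 fit of the 4 groups, over genes in both tables. Standard errors are approximate, obtained by dividing the size of the log2 change by the root of F. CPM by library are TMM-scaled, except for the levels that chose the members and the levels compared between lines, which are counts over library totals. GC content and length are of the union of exons in GENCODE v29. Offsets came from a smooth surface on both, fitted per library with mgcv 1.9.3. Correlations and lists are described without a test.

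The members, the lists, the tests and the naming rule were chosen with earlier results of these data known. Named were, per line, up to 8 rises and 8 falls of largest fold without overlap between groups and with at least 1 CPM, the 4 highest levels per kilobase, members called in both lines, the 4 largest differences each way, and ZNF91, ZNF93, ZNF146, ZNF224, ZNF274, ZNF331, ZNF649 and ZNF808. ZNF154 was on that list and is not a member.

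On simulated counts from these libraries, changes of 0.3, 0.5, 1 and 2 (log2) were recovered at 28, 60, 88 and 98% in the simulation of the Hep-3B comparison (15790 genes, 12 false calls) and at 34, 66, 88 and 100% in that of the Huh-7 comparison (15886 genes, 8 false calls). The difference recovered 214 of 390 (17109 genes, 7 false calls). A planted GC trend went from a rho of -0.716 to 0.00433 and from -0.734 to -0.00398. The alternatives included DESeq2 1.42.0, limma-voom (limma 3.58.1), RLE factors, upper-quartile factors, other filters, 1 fit of both lines, a replicate block, the offsets, a false discovery rate of 0.01, other level limits, symbols with a trailing letter, a 0.5 Mb gap and each library left out. Plots were made in Python 3.11.15 (matplotlib 3.10.9).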

Additional observations from a re-analysis of the deposited data

Results flagged for a closer look

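The 13 genes listed here are those called in opposite directions in the 2 lines and those with the 4 largest differences each way. In each the effect of siARD1 differed between the lines by the interaction test in edgeR. They are not all the named genes that passed this test. Others include ZNF317 (0.62, edgeR adjusted p = 7.71e-06), ZNF875 (0.77, 0.000122), ZNF473 (0.74, 0.000186) and ZNF85 (-1.33, 0.000618). The values are the Huh-7 effect minus the Hep-3B effect on the log2 scale. Below 0 were ZNF441 (-1.43), ZNF493 (-1.45) and ZNF91 (-0.80), which were called in opposite directions in the 2 lines. Above 0 and also called in opposite directions were ZNF576 (0.86), ZNF787 (0.89) and ZNF45 (0.63). ZNF114 (1.91), ZNF836 (1.38) and ZNF583 (1.47) were above 0 and called in Huh-7 alone. The difference was no longer called without single libraries: for ZNF114 without control library 3 of Hep-3B, control library 2 or 3 of Huh-7 or siARD1 library 2 of Huh-7 (adjusted p = 0.0596 to 0.139), for ZNF836 without control library 2 or 3 of Hep-3B, control library 3 of Huh-7 or siARD1 library 3 of Huh-7 (0.0662 to 0.0851), and for ZNF583 without control library 1 or 2 or siARD1 library 3 of Hep-3B (0.0587 to 0.115). ZNF525 (-4.87), ZNF813 (-3.54), ZNF83 (-2.34) and ZNF264 (-1.91) had 10, 34, 24 and 41 counts in all 6 libraries labelled Hep-3B and were not tested in that line alone. Their fitted differences depend on how zeros and single counts are treated and give no size, and that of ZNF83 was not called without control library 3 or siARD1 library 3 of Hep-3B (0.0505 and 0.0721).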

How the results depend on the processing

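Counts of members. In the libraries labelled Hep-3B the number that rose (31) was 18 with the GC and length offsets and 19 with these offsets and the replicate block, and 18 at a false discovery rate of 0.01, where the number that fell (15) was 9. In Huh-7 the number that rose (32) was 16 at that rate and the number that fell (16) was 10, and 25 fell with upper-quartile factors. With 1 library left out, 22 to 36 rose and 10 to 15 fell in the libraries labelled Hep-3B, and 20 to 29 rose and 12 to 15 fell in Huh-7. For the difference between the lines, 13 to 20 were higher and 21 to 32 lower. The median log2 fold change over the members in Hep-3B (0.049) was -0.012 with the offsets, -0.018 with the offsets and the replicate block, 0.136 with both lines in 1 fit, 0.142 without a filter, and 0.015 to 0.108 with 1 library left out. In Huh-7 (0.052) it was -0.011 with upper-quartile factors and 0.035 to 0.089 with 1 library left out. Upper-quartile factors also moved the median of all genes tested in Huh-7, from -0.0076 to -0.0712.

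Cluster D. In Hep-3B its median (0.635) was 0.349 with the offsets and 0.357 with the offsets and the replicate block, with 6 genes higher in both, and 0.564 to 0.728 with 1 library left out, with 8 to 12 genes higher and 0 lower. In Huh-7 its median (-0.031) was -0.094 with upper-quartile factors and -0.137 to -0.018 with 1 library left out, when 1 to 2 genes rose and 4 to 5 fell. With both lines in 1 fit 3 fell. The Hep-3B values of this cluster include ZNF724, which passed the filter of the main fit through the siARD1 group only.

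GC content and length. In Hep-3B rho with GC content (-0.477) was -0.222 with the offsets, -0.218 with the offsets and the replicate block, -0.587 over members at 5 CPM or more, and -0.491 to -0.446 with 1 library left out. In Huh-7 (0.117) it was 0.067 to 0.169 with 1 library left out. The Spearman correlation with length in Hep-3B (0.147) was 0.024 and 0.029 with the offsets, without and with the block, and 0.114 to 0.201 with 1 library left out. In Huh-7 (-0.136) it was -0.198 and -0.199 with the offsets, without and with the block, -0.086 over the longest transcript, -0.176 over members at 5 CPM or more, and -0.144 to -0.101 with 1 library left out. The cause of these shifts was not tested.

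The titles number the replicates alike in both arms, but libraries of the same number deviated together by 0.0204, 0.185 and 0.174 in Hep-3B and by 0.196, -0.190 and -0.00255 in Huh-7, so the numbers were not taken as pairs. In Hep-3B every library correlated best with its own number, as a hint from the data. With the replicate block 32 members rose and 16 fell in Hep-3B, and 32 and 15 in Huh-7.

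Of the 2185 values of named genes under these alternatives 2006 stayed on their side of the threshold, 158 lost a call, 21 gained one and 0 changed direction with a call. Of the 81 calls among them, 44 held in every alternative and 37 were lost in at least 1. Counts at trace level limit what can be said of the 52 members not tested in Hep-3B.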
